A study of Mus musculus with 18 samples.

Results

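Ribosomal protein pseudogenes are copies of the genes for ribosomal proteins that carry the name of the parent gene with a numbered -ps ending, such as Rps13-ps1 for a copy of Rps13. Members were taken by name alone, as every gene whose symbol starts with Rpl or Rps and ends in -ps with or without a number, and no expression value entered the choice. This gave 276 of the 52636 genes in the files. By the biotype given in the files, 260 were processed pseudogenes, 5 transcribed processed pseudogenes and 11 protein-coding genes, so the label pseudogene did not match the annotation of those 11. The copies came from 61 parent genes, with 23 copies of Rps12, 22 of Rpl31 and 14 each of Rpl23a, Rps19 and Rpl21. The X chromosome held 35 of them.

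Poly-A RNA was sequenced from the liver, brain and testis of male C57BL/6 mice aged 8 weeks, either Pcgf6 knockout (KO) or wild type (WT). Each tissue had 3 KO libraries, numbered 4, 5 and 6, and 3 WT libraries, numbered 1, 2 and 3, making 18 libraries in 6 groups. Pcgf6 belongs to PRC1.6, a repressive polycomb complex, and the study compared the genotypes within each tissue; the kind of Pcgf6 allele was not given in the sources used here. The labels do not say that the 3 libraries of a group came from separate animals, so p-values measure the spread between these libraries.

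Ribosomal proteins are made in every dividing and non-dividing cell from some of its most abundant mRNAs. Such mRNAs are a frequent source of processed pseudogenes, which form when a spliced mRNA is reverse transcribed and inserted elsewhere in the genome, without introns and usually without the parent's promoter. Names starting with Rpl refer to proteins of the large ribosomal subunit and names starting with Rps to proteins of the small subunit. A recent copy can be nearly identical to its parent, in which case a short read may align equally well to both.

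Within the coding sequence, the letters in which a copy differs from its parent are what separates their reads. Bases outside the coding sequence can also separate them and are not shown. The following 3 pairs are shown because the largest differences between libraries, and the clearest difference between tissues, were found in these copies. All sequences are on GRCm38 (mm10), in the direction of the coding strand, and capitals mark the bases that differ; the parent's sequence is its spliced coding sequence, with positions counted from 1 at the A of its start codon. Rps13-ps1 lies at chr8:87047689-87048226 on the plus strand and differs from Rps13 (chr7:116331505-116334195, minus strand) at 2 of 456 coding bases, T411C and A429G. The stretch from coding position 375 to 456 holds both:
Rps13-ps1: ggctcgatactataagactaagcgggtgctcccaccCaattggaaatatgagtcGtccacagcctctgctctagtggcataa
Rps13: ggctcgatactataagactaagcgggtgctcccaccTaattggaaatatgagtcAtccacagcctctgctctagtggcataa
Rpl34-ps1 lies at chr6:71124610-71124963 on the plus strand and differs from Rpl34 (chr3:130726831-130730398, minus strand) at 2 of 354 coding bases, T132C and C318G. Positions 96 to 335 show both:
Rpl34-ps1: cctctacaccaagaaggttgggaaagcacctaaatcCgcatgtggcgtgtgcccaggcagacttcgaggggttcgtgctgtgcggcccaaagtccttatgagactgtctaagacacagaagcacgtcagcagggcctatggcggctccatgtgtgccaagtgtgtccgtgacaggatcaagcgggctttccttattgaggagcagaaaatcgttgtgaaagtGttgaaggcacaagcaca
Rpl34: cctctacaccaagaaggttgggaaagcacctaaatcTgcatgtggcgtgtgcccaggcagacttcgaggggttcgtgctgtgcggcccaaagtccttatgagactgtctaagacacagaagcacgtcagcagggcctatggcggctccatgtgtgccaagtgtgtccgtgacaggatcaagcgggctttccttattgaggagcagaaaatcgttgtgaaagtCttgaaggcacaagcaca
Rpl31-ps4 lies at chr16:87549062-87549451 on the minus strand and differs from Rpl31 (chr1:39367842-39371911, plus strand) at 31 of 378 coding bases, 1 of them a gap. Positions 70 to 309 show 25 of these:
Rpl31-ps4: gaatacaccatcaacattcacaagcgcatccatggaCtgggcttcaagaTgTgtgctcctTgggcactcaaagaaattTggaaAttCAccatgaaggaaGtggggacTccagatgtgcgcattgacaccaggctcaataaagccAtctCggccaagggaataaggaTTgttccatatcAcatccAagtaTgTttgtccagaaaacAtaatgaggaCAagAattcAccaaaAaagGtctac
Rpl31: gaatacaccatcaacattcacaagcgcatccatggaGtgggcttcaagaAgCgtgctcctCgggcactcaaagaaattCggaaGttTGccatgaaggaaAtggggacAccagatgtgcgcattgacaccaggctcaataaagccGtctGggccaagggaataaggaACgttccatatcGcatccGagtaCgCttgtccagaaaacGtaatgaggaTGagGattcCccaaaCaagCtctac
Rps13-ps1 and Rpl34-ps1 share long identical runs with their parents, whereas the differences in Rpl31-ps4 are spread over most of the stretch.

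Expressed copies were closer in sequence to their parents than the rest. A copy is called expressed here when 3 or more of the 6 libraries of a tissue had at least 10 reads of it. Of the 276 copies, 275 were found in GENCODE M21 and 273 could be aligned to a transcript of the parent. The 72 copies expressed in any tissue had a median identity of 99.3% of aligned bases, the 135 aligned copies with reads that were not expressed had 96.2%, and the 66 aligned copies without a read had 93.2%. Over the aligned bases 14 expressed copies were identical to the parent, as were 1 copy read but not expressed and none without a read. The parent's reading frame was open over its whole aligned length in 42 of the 72 expressed copies (58.3%), against 40 (29.6%) and 23 (34.8%) in the other classes. How reads that align to several places were counted is not given in the sources used here. The division of reads between a near-identical copy and its parent is therefore uncertain throughout.

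**Figure D1:**
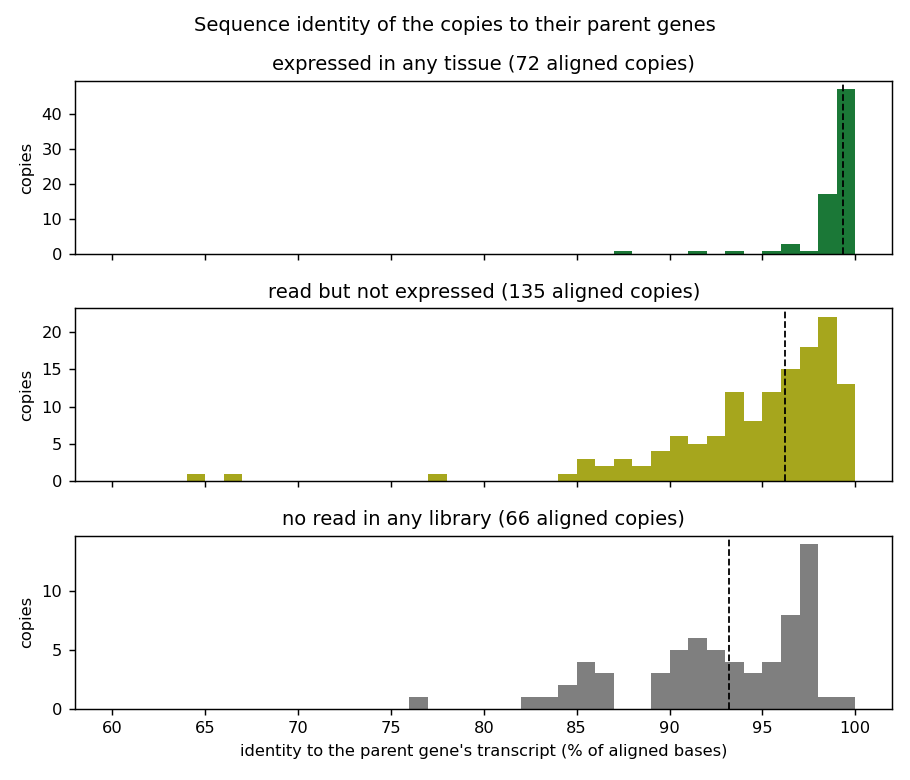
Sequence identity of the copies to their parent genes, in percent of aligned bases, for copies expressed in any tissue (72), copies read but not expressed (135) and copies without a read (66). Bars count copies per bin of 1 percentage point and the dashed lines mark the medians, 99.3, 96.2 and 93.2%.

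Depth lay between 18990130 and 23529098 reads per library, and each library held a read of 98 to 148 copies. Pcgf6 averaged 1.92 ± 0.65 FPKM in KO livers and 4.91 ± 0.79 in WT livers, 3.98 ± 0.60 in KO brains and 5.02 ± 0.38 in WT brains, and 9.93 ± 0.59 in KO testes and 20.9 ± 1.25 in WT testes (SD, n = 3 each; FPKM is fragments per kilobase of a gene, divided by a library size). By limma over all genes, the adjusted p of Pcgf6 was 0.485 in liver, 1.00 in brain and 0.0638 in testis. Defining markers of the labelled tissue were read in every library of that tissue, with summed levels of 49732 to 59112 FPKM for the liver list in liver, 888 to 974 for the brain list in brain and 12263 to 21253 for the testis list in testis. In bulk tissue, fewer cells of a type and less RNA per cell cannot be told apart. The numbers 1 to 6 recur in all 3 tissues, and 4 copies had their highest levels in libraries numbered 2, 3 and 6 in each tissue.

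A minority of the copies were expressed, and most of these were expressed in all 3 tissues. Of the 276 copies, 208 had a read in any library and 68 had none. Expressed copies numbered 57 in liver, 57 in brain and 63 in testis, 72 in any tissue (26.1%). Of all genes 47.5% were expressed in any tissue, so the share of the copies lay below that of all genes. By tissue it was 20.7, 20.7 and 22.8% of the copies in liver, brain and testis, against 26.8, 34.0 and 42.4% of all genes. Among the 1119 other genes with a -ps name, 213 were expressed in any tissue (19.0%), and among 8356 processed pseudogenes outside the name rule, 1081 were (12.9%). All 79 listed ribosomal protein genes were expressed in all 3 tissues. Of the expressed copies 46 (63.9%) were expressed in all 3 tissues, 13 in 2 tissues and 13 in a single tissue. The same share in all 3 tissues was 28.6% among expressed genes with other -ps names, 27.4% among other processed pseudogenes and 50.5% among all genes expressed.

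Expression was seen in testis alone for 9 of the 72 copies: Rpl21-ps13, Rpl36-ps3, Rpl31-ps10, Rpl27-ps1, Rpl28-ps3, Rpsa-ps5, Rpsa-ps9, Rpl31-ps4 and Rpl29-ps2. In liver alone there were 3, Rps15a-ps5, Rpl10-ps1 and Rpl10-ps5, and in brain alone only Rpl36-ps2. The 9 testis copies made 69.2% of the 13 copies expressed in a single tissue, near the 71.5% among all 8192 genes expressed in a single tissue, of which 5859 were expressed in testis. By biotype, 61 of 260 processed pseudogenes, all 5 transcribed processed pseudogenes and 6 of 11 protein-coding copies were expressed. Families of copies differed in how many were expressed. Of the 23 copies of Rps12, 3 were expressed, of the 22 of Rpl31, 3, of the 14 of Rpl23a, 1, of the 14 of Rps19, 2, of the 11 of Rpl7a, 2, of the 14 of Rpl21, 5, and of the 9 of Rpl9, 3. The X chromosome held 7 expressed copies of its 35, and chromosome 7 held 6 of 22. Of the 72 expressed copies 32 overlapped another gene on either strand. The library kit does not mark strand, so reads from a copy and from an overlapping gene cannot be told apart.

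The reads were concentrated on a few copies, and the same 8 copies had the highest mean FPKM in all 3 tissues. They were Rpl17-ps10, Rpl34-ps1, Rpl31-ps8, Rps10-ps2, Rpl21-ps15, Rps12-ps3, Rps16-ps2 and Rpl38-ps2. They held 61.7% of the summed FPKM of all copies in liver, 62.2% in brain and 59.3% in testis. A mean of at least 10 FPKM was reached by 28 copies in liver, 17 in brain and 15 in testis, and the median expressed copy had 7.75, 4.18 and 3.18 FPKM in these tissues. Against the FPKM of its parent, the median expressed copy stood at 8.67% in liver, 9.96% in brain and 9.57% in testis. A parent's gene length spans all its isoforms, which lowers its FPKM relative to that of a copy. Summed over all copies, the FPKM came to 9.71, 10.2 and 10.2% of the sum of the ribosomal protein genes in KO livers, against 9.85, 12.2 and 9.88% in WT livers. In brain this was 10.4, 10.8 and 11.4% in KO libraries, against 10.8, 13.6 and 11.9% in WT libraries. In testis it was 7.20, 7.79 and 9.34% in KO libraries, against 8.17, 11.8 and 9.22% in WT libraries, and WT 2 was the highest library in each tissue. In WT 2 the single copy Rpl34-ps1 had 467, 212 and 245 FPKM in liver, brain and testis. In the other libraries of these tissues it had at most 122, 23.5 and 19.7.

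Among large-subunit copies, Rpl17-ps10 was the highest in each tissue. Rpl17-ps10 (chr7:72648757-72649311, minus strand) measured 273, 248 and 252 FPKM in KO livers, against 229, 115 and 242 in WT livers. The value of 115 belongs to WT 2, where the copy had 979 reads and Rpl17 1749, while in the other 5 liver libraries the copy had 1689 to 2135 reads and Rpl17 436 to 560. Over the 6 libraries of a tissue it averaged 125 ± 17.4 FPKM in brain and 96.6 ± 12.9 in testis, and it stood at 356% of its parent's FPKM in liver, 473% in brain and 406% in testis. Rpl31-ps8 (chr15:90764279-90764656, minus strand), identical to the whole coding sequence of Rpl31, averaged 117 ± 14.0 FPKM in liver, 67.2 ± 11.3 in brain and 61.1 ± 8.14 in testis. Rpl21-ps15, which overlaps Wnk3 on the opposite strand, averaged 92.0 ± 5.07 FPKM in liver and reached 934% of Rpl21, the largest such share of any copy in liver. Rpl38-ps2 averaged 61.5 ± 14.4 FPKM in liver and is identical over the coding sequence of Rpl38, a protein that mouse embryos need to translate Hox mRNAs.

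Small-subunit copies among the 8 varied little between libraries. Rps10-ps2 averaged 111 ± 5.93 FPKM in liver, 55.6 ± 4.67 in brain and 49.8 ± 5.41 in testis (SD, n = 6). Rps12-ps3, annotated as protein coding and identical to Rps12 over its coding sequence, averaged 88.6 ± 11.4 FPKM in liver and 292% of its parent. Rps16-ps2 averaged 82.9 ± 7.67 FPKM in liver and 46.4% of Rps16. Of these 8 copies only Rpl34-ps1 had an SD above its mean, at 139 ± 164 FPKM in liver, 49.4 ± 79.8 in brain and 55.7 ± 93.0 in testis.

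**Figure D2:**
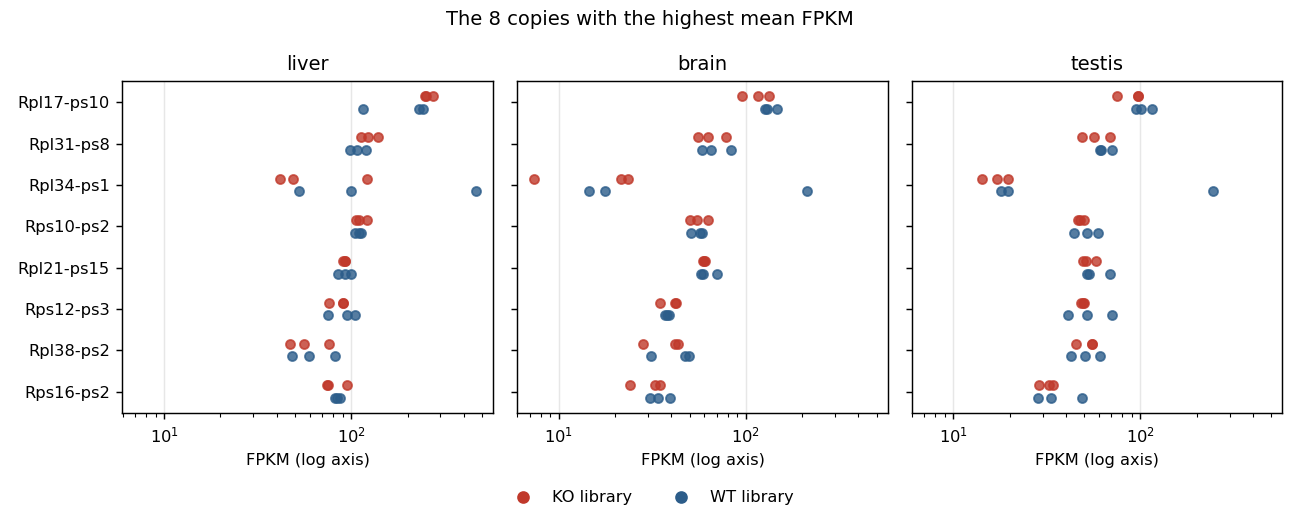
FPKM (log axis) of the 8 copies with the highest means, 1 point per library, KO libraries above WT libraries, in liver, brain and testis. In each tissue 1 WT library of Rpl34-ps1 stands far to the right, at 467, 212 and 245 FPKM, while the other 7 copies vary less between libraries.

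Few copies met the fixed definition of on and off, at least 10 reads in 1 library and 0 reads in another library of the same tissue. The copies described here had low reads. Rps15a-ps5 in liver had 3, 1 and 10 reads in KO libraries, against 0, 10 and 20 in WT libraries. Rps2-ps9 in testis had 5, 2 and 4 reads in KO libraries, against 3, 10 and 0 in WT libraries. KO and WT libraries overlapped in both. A count of 0 allows up to 3 reads, which is 0.575 FPKM for Rps15a-ps5 in WT 1 of liver and 0.150 FPKM for Rps2-ps9 in WT 3 of testis. At this depth such copies were at the edge of detection, and floors cover counting error only.

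A wider look, chosen after the values were seen, found copies whose level differed greatly between libraries of every tissue. The measure was the highest over the lowest FPKM among the 6 libraries of a tissue, among genes with at least 20 reads in the highest library; a lowest library under 3 reads was set to 3 reads. Of the 41 copies measurable in all 3 tissues, 6 (14.6%) differed at least 5-fold in each: Rps13-ps1, Rpl34-ps1, Rpl30-ps10, Rpl30-ps1, Rpl15-ps2 and Rpl15-ps3. The share among all genes was 0.241% of 12031, and none of 54 genes with other -ps names and none of the 79 ribosomal protein genes did so in all 3 tissues. Within a single tissue, 7 of 48 copies in liver, 12 of 52 in brain and 10 of 58 in testis differed at least 5-fold (14.6, 23.1 and 17.2%), against 3.85, 1.90 and 3.34% of all genes. Among genes with other -ps names these were 19 of 96 in liver, 5 of 78 in brain and 9 of 156 in testis (19.8, 6.41 and 5.77%), so in liver their share was above that of the copies. Of the 79 ribosomal protein genes, 1 did so in brain and none in liver or testis.

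Rps13-ps1, a copy of a small-subunit protein gene, was high in the same numbered libraries of every tissue. In liver it had 13, 11 and 360 reads in KO 4, KO 5 and KO 6, against 7, 513 and 536 in WT 1, WT 2 and WT 3. In brain the KO libraries had 19, 11 and 310 reads and the WT libraries 21, 476 and 700. In testis the KO libraries had 27, 34 and 708 reads and the WT libraries 25, 789 and 975. Libraries 6, 2 and 3 were thus high and libraries 4, 5 and 1 low in all 3 tissues, and both genotypes held high and low libraries. In FPKM the highest library was 68.2-fold above the lowest in liver, 63.4-fold in brain and 38.4-fold in testis.

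Rps13 itself varied less between libraries. In liver Rps13 had 1572, 2078 and 1054 reads in KO libraries, against 1591, 1484 and 1391 in WT libraries. Of the reads of copy and parent together, Rps13-ps1 held 0.82, 0.53 and 25.5% in KO livers, against 0.44, 25.7 and 27.8% in WT livers. In brain these shares were 1.49, 0.63 and 23.9% in KO libraries, against 1.27, 26.4 and 46.5% in WT libraries. In testis they were 0.69, 0.95 and 19.7% in KO libraries, against 0.70, 21.8 and 23.4% in WT libraries. The libraries high for the copy were the 3 lowest for Rps13 in FPKM in each tissue, with 40.7 to 48.6 FPKM in libraries 2, 3 and 6 of testis against 52.4 to 63.5 in the others. In brain these 3 reached at most 18.2 FPKM against 18.7 to 23.6 in the others, and in liver the others had 44.6 to 49.8 FPKM against a lowest value of 30.3 in KO 6. In reads this held in liver and testis, and in brain WT 2 was not among the 3 lowest. The nearest annotated gene, the pseudogene Gm18602 at a distance of 3171 bases, had no read in any library.

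Rpl34-ps1 stood apart in a different library. In liver it had 184, 670 and 225 reads in KO libraries, against 471, 2527 and 277 in WT libraries. In brain it had 208, 71 and 206 reads in KO libraries, against 142, 2036 and 171 in WT libraries. In testis it had 137, 127 and 172 reads in KO libraries, against 167, 2238 and 155 in WT libraries. WT 2 was the highest in each tissue, 3.82-fold above the next library in liver, 9.01-fold in brain and 12.5-fold in testis. Rpl34, which encodes a large-subunit protein, had its lowest reads in WT 2 of each tissue, 1945, 1742 and 2074. Rpl34-ps1 held 56.5, 53.9 and 51.9% of the reads of copy and parent in WT 2 of liver, brain and testis, and 2.37 to 15.5% in the other 15 libraries. Thnsl2, the nearest gene at 3203 bases, ranged only from 22.2 to 27.7 FPKM over the liver libraries.

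**Figure D3:**
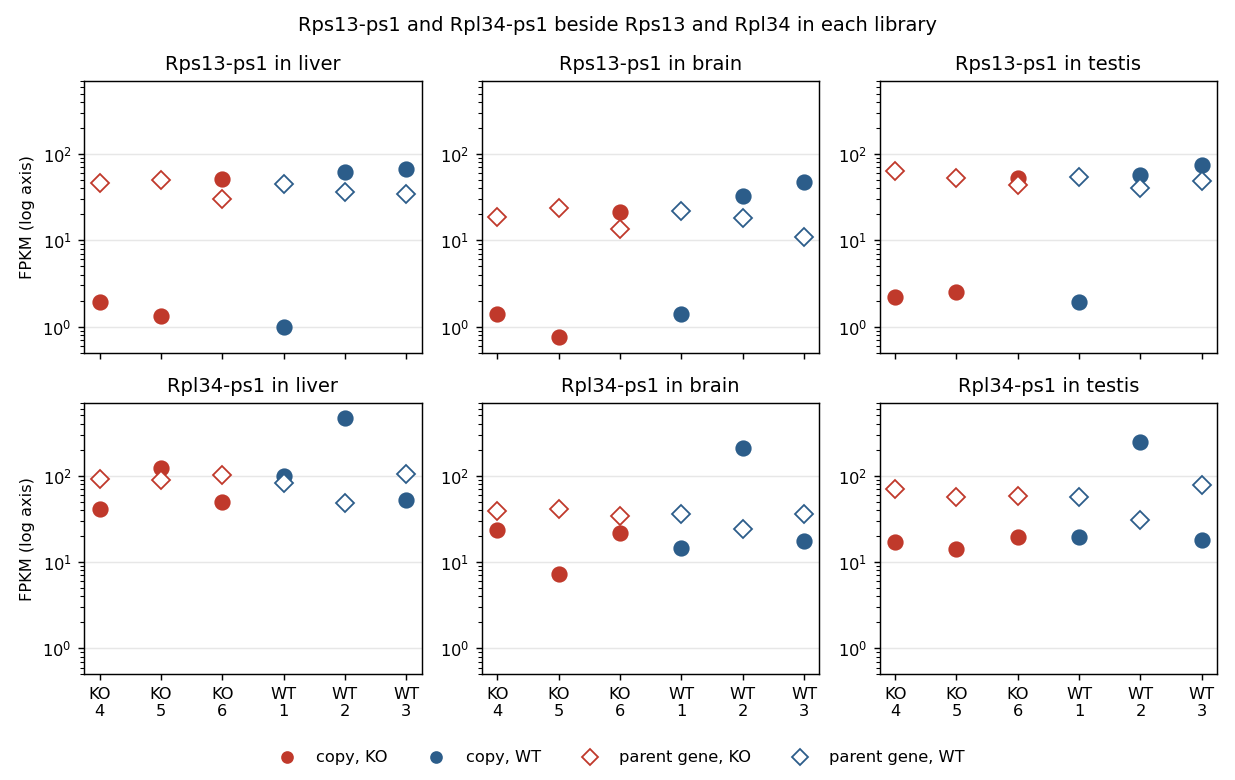
FPKM (log axis) of Rps13-ps1 (top) and Rpl34-ps1 (bottom) as filled circles and of their parents as open diamonds, in each library of liver, brain and testis, KO 4 to 6 left of WT 1 to 3. Rps13-ps1 is high in KO 6, WT 2 and WT 3 of each tissue and Rpl34-ps1 in WT 2, while the parents vary less.

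The copies of Rpl15 followed the same libraries as Rps13-ps1, at lower levels. Rpl15-ps3 (chr9:22185607-22186221, minus strand), identical to the coding sequence of Rpl15, had 8, 8 and 34 reads in KO livers, against 7, 49 and 36 in WT livers. In testis it had 3, 4 and 23 reads in KO libraries, against 6, 24 and 39 in WT libraries. Rpl15-ps2 had 3, 2 and 25 reads in KO livers, against 2, 25 and 18 in WT livers. Rps15a-ps3 had 2, 3 and 11 reads in KO livers, against 3, 13 and 11 in WT livers, and with Rps13-ps1 these made 4 copies whose 3 highest libraries by FPKM were numbers 2, 3 and 6 in all 3 tissues. The same 3 numbers, whichever they were, held the highest libraries in all 3 tissues for 4 of 46 copies (8.70%) and for 96 of 12613 genes expressed in all tissues (0.761%). For 10 of those 12613 genes the numbers were 2, 3 and 6.

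Rps13-ps2, identical to Rps13 over the alignment, had its highest FPKM in KO 4 of each tissue, with 80, 34 and 37 reads in KO livers, against 33, 55 and 53 in WT livers. In brain it had 103, 36 and 30 reads in KO libraries, against 61, 36 and 4 in WT libraries. KO 4 was among the libraries in which Rps13-ps1 was low.

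The copies of Rpl30 followed other libraries, and not the same ones in each tissue. Rpl30-ps10 on the X chromosome (chrX:71803688-71804034, plus strand) had 231, 47 and 44 reads in KO livers, against 100, 166 and 55 in WT livers. In brain it had 13, 125 and 172 reads in KO libraries, against 89, 26 and 32 in WT libraries. In testis it had 17, 24 and 151 reads in KO libraries, against 259, 135 and 349 in WT libraries. Its highest library was thus KO 4 in liver, KO 6 in brain and WT 3 in testis. Rpl30 had its lowest reads in WT 1 of each tissue, 1326, 1251 and 1531. The part that the division of reads between copy and parent had in these library differences was not tested.

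Between tissues, the copies as a whole stood lower in brain and testis than in liver in the deposited FPKM, as did the ribosomal protein genes. For the copies in WT this did not hold when libraries were scaled by their totals, as given below. In KO it held with that scaling, with smaller median differences. In WT mice, 37 of 59 tested copies were called between brain and liver by limma at an adjusted p under 0.05, all 37 lower in brain. All genes were called at 83.9% in that comparison, 48.6% higher and 35.3% lower. Between testis and liver 43 of 68 copies were called, 8 higher and 35 lower in testis, where 87.7% of all genes were called, 57.8% higher and 29.9% lower. Between testis and brain 28 of 66 copies were called, 18 higher and 10 lower, where 86.1% of all genes were called, 50.1% higher and 35.9% lower. In each of these 3 comparisons in WT the share of copies called in either direction lay below the background. The share called lower was above it in brain minus liver (62.7%, against 35.3% of all genes) and in testis minus liver. The 3 comparisons share WT libraries.

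The scaling of the FPKM changed how many copies were called lower than in liver. The library sizes behind the deposited FPKM differ from the plain totals, with a total over implied size between 1.44 and 1.52 in liver, between 0.806 and 0.835 in brain and between 0.823 and 0.969 in testis. Scaled by library totals, the median of all genes moved by 0.75 on the log2 scale in brain minus liver and by 0.56 in testis minus liver in WT. With that scaling 19 copies were called between brain and liver, 8 higher and 11 lower, 23 between testis and liver, 13 higher and 10 lower, and 25 between testis and brain, 14 higher and 11 lower. The median copy in WT then differed by -0.03 in brain minus liver and -0.05 in testis minus liver, against -0.87 and -0.78 as deposited. Relative to the median of all genes, the median copy had a log2 difference of -1.19 in brain minus liver as deposited and -1.10 by library totals. In testis minus liver it was -1.83 and -1.67, and in testis minus brain -0.17 and -0.18. Of the 79 ribosomal protein genes, 73 were called between brain and liver as deposited, all lower in brain, 59 between testis and liver, 2 higher and 57 lower, and 46 between testis and brain, 35 higher and 11 lower. By library totals 44 were called between brain and liver, 6 higher and 38 lower. Between testis and liver these were 36, 17 higher and 19 lower, and between testis and brain 35, 24 higher and 11 lower.

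KO libraries, which the WT comparisons did not use, gave the same directions for most called copies. In KO mice 47 of 54 copies were called between brain and liver (87.0%, against 84.2% of all genes). Between testis and liver 46 of 63 were called (73.0%, against 89.6%), and between testis and brain 33 of 59 (55.9%, against 89%). Between brain and liver the KO share of copies was thus above the background, unlike in WT. Of the copies called in WT and tested in KO, 36 of 36 had the same sign between brain and liver, 41 of 41 between testis and liver and 24 of 26 between testis and brain. Of these, 33, 39 and 21 were also called in KO. The same counts over all genes were not taken, so they are no result about the copies. By library totals 24 copies were called between brain and liver in KO, 4 higher and 20 lower in brain. Between testis and liver these were 41, 12 higher and 29 lower in testis. The median copy in KO then differed by -0.32 in brain minus liver and -0.42 in testis minus liver. Scaling by library totals moved the median of all genes in KO by 0.78 in brain minus liver and 0.51 in testis minus liver. In WT it moved by 0.75 and 0.56, so KO and WT share this scaling and a shared sign against liver is no independent support. The copy called higher in brain than in liver in KO was Rps13-ps4, which overlaps Taf1c, with 11, 14 and 13 reads in KO brains and 0, 5 and 0 in KO livers.

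A few copies were testis copies, and Rpl31-ps4 was the clearest. It had 30, 49 and 50 reads in KO testes, against 41, 45 and 35 in WT testes, and no read in any of the 6 liver libraries. In brain its only read was 1 in KO 5. Its WT testes averaged 4.18 ± 0.44 FPKM, at least 7.83-fold higher than WT livers and at least 14.9-fold higher than WT brains when each of these libraries is set at 3 reads. In WT the difference was called by limma against liver (Benjamini-Hochberg adjusted p = 7.58e-08) and against brain (4.21e-08), and again in KO. The copy passed the read filter through its testis libraries alone. With 0 reads in every WT liver and WT brain the low group had no spread, so these p-values add nothing to the reads. The log2 difference of 5.41 in both WT fits depended on the pseudocount, and ran from 2.37 to 8.70 over the alternatives. Rpl31 encodes a protein of the large subunit, and this copy, with 91.9% identity, was less like its parent than any other expressed copy except Rpl36a-ps3. It overlaps no other gene.

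Other copies were also higher in testis. Rpl36-ps3 averaged 10.5 ± 2.05 FPKM in WT testes, against 0.386 ± 0.062 in WT brains and 0.421 ± 0.36 in WT livers, with log2 differences of 4.44 ± 0.18 and 4.80 ± 0.77 (SE; limma adjusted p = 2.95e-07 and 0.00081). It overlaps the lincRNA AC127270.2 on the same strand, so the reads of this copy and of the lincRNA cannot be told apart. Over KO and WT libraries together the lincRNA averaged 8.18 FPKM in testis, 0.0145 in brain and 0 in liver. Rpl27-ps1 averaged 2.76 ± 0.55 FPKM in WT testes, against 0.0548 ± 0.095 in WT livers (log2 difference 4.35 ± 0.41, limma adjusted p = 4.37e-05). Over the alternatives this difference ran from 1.83 to 6.72. Rpl36-ps3 and Rpl27-ps1 were expressed in testis alone, so they passed the read filter through their testis libraries. Rpl30-ps10 averaged 29.1 ± 13.1 FPKM in WT testes, against 5.13 ± 3.58 in WT brains, and was called in WT (2.57 ± 0.53, limma adjusted p = 0.00261). In KO its difference was -0.60 with an adjusted p of 0.616, so for this copy the tissue difference did not repeat.

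Copies lower in testis included some of Rpl10 and Rpl36a. Other copies of these parents were not clearly lower in WT testes than in WT brains. Their log2 differences were -0.07 for Rpl10-ps6 and 1.35 for Rpl36a-ps3. Against WT livers both were lower, at -0.53 and -1.15. The parents themselves were also lower in WT testes. Rpl10 differed by -1.38 from brain and -3.56 from liver, and Rpl36a by -1.63 and -2.93. Rpl10-ps3, annotated as protein coding and identical to the coding sequence of Rpl10, averaged 0.209 ± 0.19 FPKM in WT testes, against 1.09 ± 0.29 in WT brains and 2.18 ± 0.45 in WT livers. Its log2 differences were -2.19 ± 0.57 from brain and -3.14 ± 0.57 from liver (limma adjusted p = 0.00834 and 0.00155). Rpl10-ps3 did not reach the read filter in testis, so in these fits it needed its brain or liver libraries to pass. The Rpl10 protein is needed in yeast for the joining of the ribosomal subunits. Another copy of Rpl10, Rpl10-ps5, averaged 0.165 ± 0.12 FPKM in WT testes, against 1.54 ± 0.084 in WT livers (-2.73 ± 0.32, limma adjusted p = 0.000157). It was expressed in liver alone, so it needed its liver libraries to pass the read filter. For both copies the filter leaned on the higher group, and these p-values are no independent support for the difference. Rpl10-ps5 overlaps Nup93, a gene of the nuclear pore, which moved the other way. Over KO and WT libraries together Nup93 averaged 10.1 FPKM in testis and 2.08 in liver. Rpl36a-ps2 averaged 4.54 ± 2.19 FPKM in WT testes, against 12.8 ± 4.41 in WT brains and 30.4 ± 4.87 in WT livers. Ddah1, an enzyme gene that it overlaps on the same strand, had the same order. Over KO and WT libraries together Ddah1 averaged 4.59 FPKM in testis, 22.4 in brain and 38.2 in liver. Rpl39-ps averaged 0.679 ± 0.41 FPKM in WT testes, against 1.78 ± 0.039 in WT brains (limma adjusted p = 0.015), and its KO difference had the same sign with an adjusted p of 0.0985. In WT its log2 difference was -1.45, and that of its parent Rpl39 was -1.30. A copy this low in testis can pass the read filter through its brain libraries alone.

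In brain minus liver the largest called differences were Rpl36a-ps3, Rpl30-ps10 and Rps2-ps13, all lower in brain. Rpl36a-ps3 averaged 0.720 ± 0.072 FPKM in WT brains, against 4.66 ± 1.53 in WT livers (-2.49 ± 0.24, limma adjusted p = 5.48e-05). A copy this low in brain can pass the read filter through its liver libraries alone. The identity of Rpl36a-ps3 to Rpl36a is 87.5%, the lowest of the expressed copies, and no run of 50 bases in it occurs in the parent. Its reading frame is open nonetheless. Rps2-ps13 averaged 6.64 ± 0.71 FPKM in WT brains, against 24.2 ± 1.49 in WT livers (-1.85 ± 0.10, limma adjusted p = 2.28e-06). Rpl30-ps10 averaged 5.13 ± 3.58 FPKM in WT brains, against 21.2 ± 10.3 in WT livers, with an adjusted p of 0.00998 as deposited, 0.0628 by library totals and 0.337 in KO libraries.

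In WT the log2 difference of the copy lay within 1 of that of its parent for 53 of 66 copies between testis and brain, 52 of 68 between testis and liver and 48 of 59 between brain and liver. It lay above the parent's by more than 1 for 10, 14 and 9 copies in this order, and below for 3, 2 and 2. Between testis and brain the parent's own difference lay within 1 of 0 for 55 of the 66, so this limit does not separate copies that follow their parent from copies that do not change. Spearman's rho across copies was 0.44, 0.59 and 0.27, as a description, since copies of 1 parent share that parent's value and may share its reads. Rpl31-ps4, Rpl36-ps3 and Rpl27-ps1 were among those far above their parents.

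**Figure D4:**
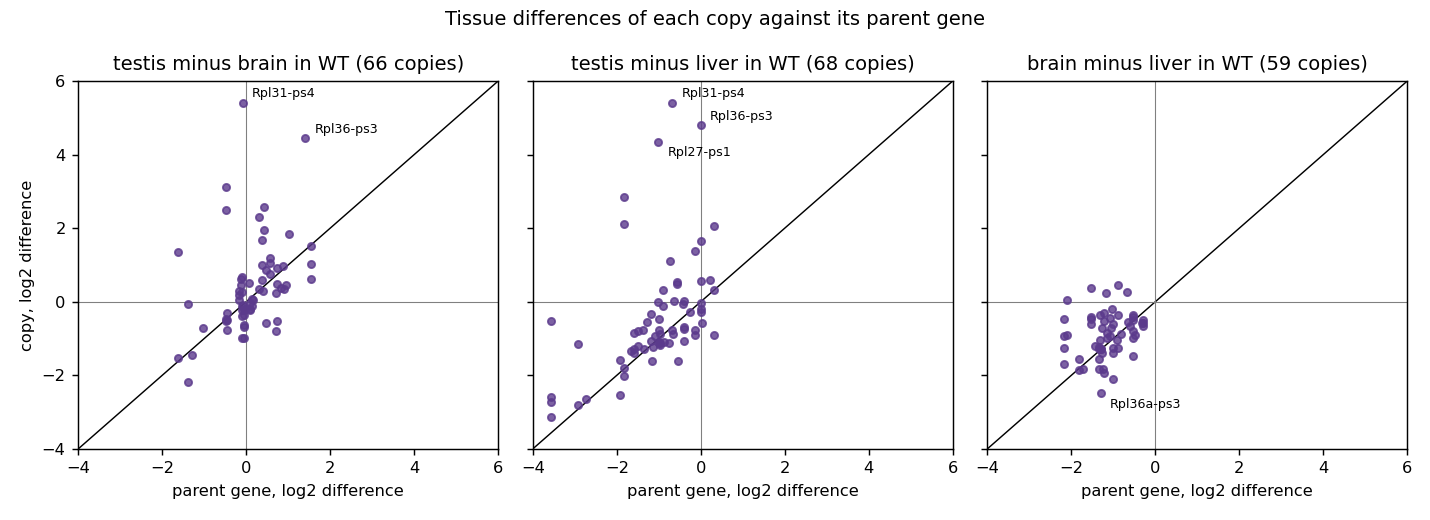
Log2 difference between tissues of each tested copy (vertical axis) against that of its parent (horizontal axis) in WT libraries, 1 point per copy, with the line of equality. Within 1 of the line lie 53 of 66, 52 of 68 and 48 of 59 copies from left to right, and Rpl31-ps4 lies highest in both testis panels at 5.41.

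Between genotypes, no copy was called in any tissue. Among 57 tested copies in liver, 57 in brain and 63 in testis, 0 passed an adjusted p under 0.05 in limma, where 0.0212% of all genes passed in liver, 0.0837% in brain and 0.00448% in testis. At an unadjusted p under 0.05 there were 5 copies in liver, 8 in brain and 5 in testis (8.77, 14.0 and 7.94%, against 4.38, 4.46 and 4.13% of all genes). These shares depended on the fit: the limma-voom fit on reads, which also called 0 copies in each tissue, gave 1, 6 and 3 copies in this order (1.75, 10.5 and 4.76%, against 4.74, 4.33 and 3.58% of all genes). Median log2 differences, KO minus WT, were 0.02 in liver, -0.22 in brain and -0.18 in testis for the copies, and 0.00, 0.01 and 0.03 for all genes. None of the 79 ribosomal protein genes was called in these 3 comparisons. Their medians were 0.02 in liver, -0.05 in brain and -0.11 in testis, with 34, 59 and 73 of the 79 lower in KO.

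For each tissue, a copy with the smallest adjusted p-value is given with its libraries. Rpl35a-ps2 in brain had 2.40, 1.88 and 2.01 FPKM in KO libraries, against 3.68, 3.32 and 3.74 in WT libraries, a log2 difference of -0.75 ± 0.11 (SE, limma adjusted p = 0.138). Rpl10-ps3 in liver had 3.63, 3.11 and 3.52 FPKM in KO libraries, against 2.65, 2.13 and 1.75 in WT libraries (0.65 ± 0.18, limma adjusted p = 0.808). Rpl30-ps1 in testis had 1.02, 0.571 and 1.28 FPKM in KO libraries, against 2.39, 2.23 and 4.82 in WT libraries (-1.60 ± 0.37, limma adjusted p = 0.871). In each of these 3 the KO and WT libraries did not overlap, yet none was called. The adjusted p in testis was shared by other copies, among them Rpl30-ps10 and Rpl34-ps1, whose KO and WT libraries overlapped. Over all tested copies the groups did not overlap for 5 of 57 in liver, 7 of 57 in brain and 5 of 63 in testis, against 9.52, 9.08 and 11.9% of all genes.

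The largest differences by size included those of copies that varied between libraries. Rpl30-ps10 in testis had 2.16, 2.75 and 17.6 FPKM in KO libraries, against 31.0, 15.1 and 41.2 in WT libraries, and the groups overlapped. Its log2 difference of -2.47 ± 0.77 was the largest by size of any tested copy in the 3 tissues (SE, limma adjusted p = 0.871). Rps13-ps1 differed by -1.64 ± 1.93 in liver, -2.14 ± 1.55 in brain and -1.58 ± 1.66 in testis (log2, KO minus WT, SE). For Rpl34-ps1 they were -1.10 in liver, -1.28 in brain and -1.39 in testis. KO and WT libraries overlapped for Rps13-ps1 and Rpl34-ps1 in every tissue, and neither was called in any tissue.

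**Figure D5:**
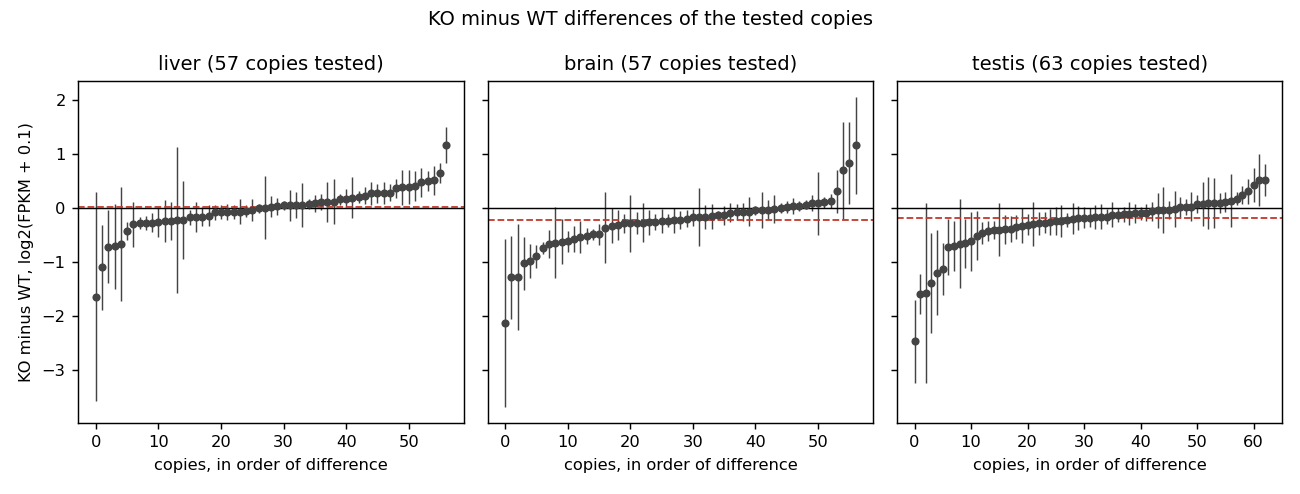
KO minus WT differences on the log2(FPKM + 0.1) scale with their standard errors for the tested copies of liver (57), brain (57) and testis (63), in order of size. The dashed lines mark the medians, 0.02, -0.22 and -0.18, and no copy was called.

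Whether genotype differences differed between tissues was tested on the 12 libraries of each tissue pair. None of 51 copies was called between testis and brain, none of 49 between testis and liver and none of 51 between brain and liver, where 0.0626, 0.0457 and 0% of all genes were called by limma. At an unadjusted p under 0.05 there were 4, 0 and 6 copies in this order (7.84, 0 and 11.8%, against 4.56, 4.61 and 4.84% of all genes). Rpl17-ps8, which overlaps the ferroxidase gene Heph on the same strand, had the smallest unadjusted p between brain and liver. In brain it had 0.645, 0.414 and 0.478 FPKM in KO libraries, against 1.04, 0.771 and 0.708 in WT libraries. In liver it had 1.41, 1.56 and 1.62 FPKM in KO libraries, against 0.850, 0.316 and 0.865 in WT libraries. KO libraries were thus all below WT libraries in brain and all above them in liver, and the brain minus liver difference was -1.79 ± 0.42 with an adjusted p of 0.416 (limma).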

How the data were processed

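Liver, brain and testis libraries, 18 in all, were made from poly-A RNA with a kit that does not mark strand, per the labels' protocols. Per the submitters' processing notes the tools were HISAT2 2.0.5, featureCounts 1.5.0-p3 and DESeq2 1.16.1, with build mm10; their settings were not given in the sources used here. The authors deposited FPKM for 52636 genes per library. Within a library, FPKM times gene length came in whole steps (within 0.01 reads) for 100% of values, which gave back the reads; counting error limits low values. The implied library sizes matched median-of-ratios size factors from 14876 genes read in all libraries.

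Each comparison was fitted to log2(FPKM + 0.1) in R 4.3.3 by limma 3.58.1, with a trend of the variance, over all genes that had 10 reads or more in 3 or more of its 6 libraries, and p-values were adjusted by Benjamini-Hochberg over all genes tested. Such differences understate changes of low genes. The fits were tested on simulated reads. Copies were aligned to GENCODE M21 transcripts of their parents. Other steps used Python 3.11.15 (pandas 2.3.3, numpy 2.4.6, scipy 1.17.1) and figures matplotlib 3.10.9. The members and lists were chosen with earlier results of these data known.

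Genes are named by a rule, and an item it names is not reported here: copies on and off within a tissue, copies called between genotypes, the 8 highest copies of each tissue, the 3 largest called differences in each direction per WT tissue pair with at least 1 FPKM, Pcgf6, and their parents and overlapping genes. Other names were chosen after their values were seen, among them the copies differing 5-fold between libraries, those with the smallest p between genotypes, Rpl17-ps8 and Rps13-ps4.

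Whether equal numbers pair libraries of different tissues was checked on deviations from the group means over all genes tested in both tissues. Every same-number correlation was over 0.1 in the 3 KO tissue pairs and in WT testis with liver (0.107 to 0.214 there), but not in WT testis with brain or WT brain with liver. In WT brain with liver, same numbers had 0.038 to 0.087, against at most -0.0047 for other numbers. The own number correlated best for all 3 numbers in every pair except WT testis with brain, where it did for 1. Libraries of equal number in different tissues may therefore not be independent. Genotypes share no number, so the block between genotypes joined libraries by the order of their numbers, which the labels do not call a pairing. Alternatives left out each replicate, changed the pseudocount, read minimum, scaling and tool, and added the replicate block.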

Additional observations from a re-analysis of the deposited data

How the results depend on the processing

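Counts of copies called between genotypes, and of genotype differences that differed between tissues, were 0 under every alternative run. The block between genotypes joins libraries by the order of their numbers only, so its 0 says nothing of stability. At an unadjusted p under 0.05 that block gave 8 copies in liver, 15 in brain and 6 in testis. With the replicate block between tissues, 35 copies were called between testis and brain, 46 between testis and liver and 41 between brain and liver in WT, and 40, 47 and 47 in KO; that pairing changed no count of calls by more than 1.5 times. With at least 20 reads, 18 copies were called between testis and brain in WT. By library totals, 23 were called between testis and liver and 19 between brain and liver in WT, and 24 between brain and liver in KO; limma-voom on reads gave 22, 16 and 22. Leaving out each replicate gave 17 to 31 between testis and brain, 36 to 42 between testis and liver and 33 to 37 between brain and liver in WT, and 23 to 34, 37 to 43 and 37 to 45 in KO. The cause was not tested.

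Counts of on and off copies followed their definition. Taking 5 reads as on gave 10 in liver, 12 in brain and 17 in testis, 20 reads gave 0 in brain and in testis, and 1 read or fewer as off gave 2 in brain and 4 in testis. Without single replicates each tissue had 0 to 1. The 6 copies differing 5-fold in all tissues became 3 at a minimum of 50 reads (Rpl30-ps10, Rpl34-ps1 and Rps13-ps1) and 4 to 5 without single numbers. Rps13-ps1 was among them under every such omission, and Rpl34-ps1 was not without number 2. Without single replicates, expressed copies numbered 60 to 63 in testis, 50 to 56 in brain and 51 to 55 in liver.

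Of the values for single genes, 455 kept their direction and side of the threshold and 12 changed sign, all of them KO minus WT differences that were called in neither fit. In liver Rpl30-ps1 became -0.0020 with a pseudocount of 0.01, -0.021 by library totals and -0.070 by voom. Without single libraries, values in liver spanned -0.37 to 0.53 for Rpl30-ps1 (lowest without WT 3), -1.06 to 0.24 for Rpl30-ps10 (above 0 without KO 5, KO 6 or WT 2), -0.16 to 0.45 for Rpl35a-ps2 (below 0 without KO 4 or WT 3) and -1.60 to 0.0063 for Rpl15-ps2 (highest without KO 5). In brain they spanned -0.94 to 0.060 for Rpl15-ps3 (highest without KO 4) and -0.62 to 0.0060 for Rpl10-ps3 (highest without KO 6). Rpl10-ps3 between testis and brain missed it with a pseudocount of 0.01 (adjusted p = 0.0552, limma), Rpl30-ps10 between brain and liver missed it by library totals (0.0628) and by voom (0.0618), and Pcgf6 in testis passed it by voom (0.0425). The adjusted p of Rpl35a-ps2 in brain lay between 0.110 and 1.00 over its alternatives. Depth limits statements on copies with few reads, and 3 libraries a group limit all comparisons.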

Other observations

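Some genes outside the name rule had the same libraries high as the copies above, and were named after their values were seen. Gm10020 on chromosome 15, identical to Rpl15 at 99.7% of aligned bases, had 6, 2 and 261 reads in KO livers, against 2, 293 and 286 in WT livers. In brain it had 0, 2 and 142 reads in KO libraries, against 6, 195 and 179 in WT libraries, and in testis 7, 2 and 183 in KO libraries, against 5, 191 and 221 in WT libraries. Its high libraries were KO 6, WT 2 and WT 3 in each tissue, as for Rps13-ps1. Gm4294 on chromosome 12, identical to Rpl15 at 99.8%, had 94, 108 and 219 reads in KO livers, against 82, 186 and 207 in WT livers. For Gm6123 on chromosome 1 the best-scoring match among the ribosomal protein genes, Fau, covered 66 aligned bases at 68.2% identity. Gm6123 had 1, 2 and 37 reads in KO livers, against 7, 45 and 47 in WT livers. Dok3 and Rab7b, which are not ribosomal protein genes, were also among the 10 genes with numbers 2, 3 and 6 highest in all 3 tissues.

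Gm7993 on chromosome 5 had 220 reads in WT 2 of liver, 121 in WT 2 of brain and 1065 in WT 2 of testis, the library in which Rpl34-ps1 stood apart. In the other liver libraries it had 2, 12 and 11 reads in KO, against 6 and 10 in WT. Its best-scoring match among the ribosomal protein genes, Rpl7, covered 28 aligned bases. Mid1 on the X chromosome, not a ribosomal protein gene, also had its highest reads in WT 2 of liver, brain and testis, 56, 168 and 120. Gm12191 on chromosome 11, identical to Rpl30 at 99.7%, had 804, 456 and 162 reads in KO livers, against 1491, 336 and 170 in WT livers. In brain it had 56, 305 and 544 reads in KO libraries, against 1458, 120 and 161 in WT libraries, and in testis 62, 93 and 311 in KO libraries, against 2197, 338 and 733 in WT libraries. Its highest library was WT 1 in each tissue, where Rpl30 had its lowest reads.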
